A study of Mus musculus with 9 samples.

Results

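Axon guidance ligands and receptors were described in hippocampal RNA from wild-type mice of 3 groups. The genes were chosen by the letters of their symbols: the semaphorins Sema3 to Sema7 with the plexins and neuropilins, the ephrins with the Eph receptors, Slit1 to Slit3 with Robo1 to Robo4, and the netrins and netrin-G genes with the Unc5 genes and Dcc. This rule found 73 of the 18474 genes in the deposited table, of which 71 belong to the 4 guidance systems. Unc50, a membrane protein of the Golgi, and Unc5cl, an intracellular death-domain protein, matched by their letters alone. The rule reads symbols and no measured value, but it was set with earlier results of these data known. The semaphorin system held 31 genes (20 ligands and 11 receptors), the ephrin system 22 (8 ligands and 14 receptors), the Slit system 7 (3 ligands and 4 receptors) and the netrin system 11 (6 ligands, netrin-G proteins included, and 5 receptors).

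Guidance ligands are secreted or membrane-bound proteins that steer a growing axon by turning, stalling or attracting its growth cone. Class 3 semaphorins are secreted and bind neuropilins, which signal through A-type plexins, while several membrane-bound semaphorins bind plexins directly. Ephrins and Eph receptors both sit in membranes and signal where cells touch, Slits repel through Robo receptors, and netrins attract through Dcc or repel through Unc5 receptors. In the adult hippocampus many of these proteins remain at synapses, on dendritic spines and on glial and vascular cells.

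The KA+NBP group held hippocampi of mice treated with KA and NBP, the KA group those of mice injected with KA, and the sham group those of control mice, each taken at 30 days with 3 libraries from 3 mice per group. KA is taken to stand for kainic acid, which activates glutamate receptors and provokes seizures in rodents. NBP is taken to be butylphthalide, the compound in the title of the series. Strain, sex, age, dose, route and the part of the hippocampus taken are not given in the sources used here. The KA contrast asks what differs in the hippocampus a month after KA, and the KA+NBP contrast asks how NBP bears on it.

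Libraries held 15699251 to 16374637 estimated counts, and 70 of the 73 genes passed the filter on low counts. Ephrin-A4 (Efna4), Epha1 and Unc5cl did not, with 30, 5 and 10 counts over the KA+NBP libraries, 32, 9 and 13 over the KA libraries and 18, 4 and 17 over the sham libraries. Where a library holds 0 counts of a gene, its level may still reach 0.183 to 0.191 CPM (counts relative to the normalized library total), a bound that covers counting error only. Markers of dentate granule cells, which are particular to the hippocampus, summed to 372 to 462 TPM (transcript levels that allow for length) in KA+NBP, 260.1 to 278 TPM in KA and 387 to 446 TPM in sham libraries. KA+NBP replicate 2 stood apart from the other KA+NBP libraries: 9 choroid plexus and ependymal markers summed to 2681 TPM there, against 40.7 and 49.0 TPM in the other KA+NBP libraries, 88.3 to 102.5 TPM in KA and 73.8 to 149 TPM in sham libraries. In the same library 15 microglial markers summed to 2056 TPM, against 743 and 752 TPM in the other KA+NBP libraries. Counts of guidance genes in the KA+NBP comparisons are therefore given also without this library, and so are the values of some single genes. The values of the other genes include it.

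Promoter sequences are shown for the pair of largest rises and the pair of largest falls in KA among the guidance genes whose difference from sham passed the test under every alternative tried. They are Sema3a, a secreted axon repellent (gene at chr5:13174789-13656201 on GRCm39), Efna5, a membrane-anchored ligand of EphA receptors (chr17:62909952-63188312), Epha6, an ephrin-A receptor (chr16:59473424-60431196), and Robo1, a Slit receptor (chr16:71824406-72844379). Each runs 5′ to 3′ on the gene's strand over 300 bases, 250 before and 50 after a RefSeq start, from the RefSeq table on GRCm38.p6, at chr5:13396534-13396833 (plus strand), chr17:62881268-62881567 (minus), chr16:60605482-60605781 (minus) and chr16:72662899-72663198 (plus). The start used need not be the first of the gene. For Sema3a and Robo1 the window lies well inside the quoted span, though the builds differ, so it may belong to an internal start. Capitals mark matches to the motifs searched.
Sema3a: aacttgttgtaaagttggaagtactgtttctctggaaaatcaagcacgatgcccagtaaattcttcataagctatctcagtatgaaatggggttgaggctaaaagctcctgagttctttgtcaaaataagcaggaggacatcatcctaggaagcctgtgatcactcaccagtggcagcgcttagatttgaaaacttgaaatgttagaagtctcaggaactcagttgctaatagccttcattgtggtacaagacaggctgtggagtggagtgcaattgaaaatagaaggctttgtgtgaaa
Efna5: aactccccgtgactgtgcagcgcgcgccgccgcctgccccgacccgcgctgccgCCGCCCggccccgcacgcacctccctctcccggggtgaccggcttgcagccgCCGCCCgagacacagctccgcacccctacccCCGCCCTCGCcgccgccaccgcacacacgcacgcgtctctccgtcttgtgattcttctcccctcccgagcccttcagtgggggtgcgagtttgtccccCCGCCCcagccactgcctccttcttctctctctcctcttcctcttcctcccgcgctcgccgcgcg
Epha6: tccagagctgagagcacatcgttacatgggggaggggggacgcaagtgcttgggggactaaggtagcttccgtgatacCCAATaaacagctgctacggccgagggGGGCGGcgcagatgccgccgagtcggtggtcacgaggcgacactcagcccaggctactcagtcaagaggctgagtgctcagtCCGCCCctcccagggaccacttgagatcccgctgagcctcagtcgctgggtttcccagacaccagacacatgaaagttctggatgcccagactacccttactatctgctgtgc
Robo1: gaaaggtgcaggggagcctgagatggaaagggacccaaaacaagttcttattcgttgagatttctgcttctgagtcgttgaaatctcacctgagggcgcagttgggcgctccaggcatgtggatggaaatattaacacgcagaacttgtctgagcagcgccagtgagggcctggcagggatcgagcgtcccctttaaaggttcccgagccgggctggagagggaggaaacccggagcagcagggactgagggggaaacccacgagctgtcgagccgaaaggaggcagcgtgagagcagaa
These 4 promoters differ in base composition: G and C made up 41.3% of the Sema3a window, 73.3% of Efna5, 60.3% of Epha6 and 57.0% of Robo1, against a median of 52.7% over 32851 promoters. The search covered, on both strands, the AP-1 site TGANTCA (in 7.81% of all promoters of this length), the cAMP response element TGACGTCA (1.79%), the EGR core GCGNGGGCG (5.55%), the GC box GGGCGG (35.7%), the CCAAT box (37.4%), the TATA box TATAAA (13.6%) and the STAT site TTCNNNGAA (8.30%). Efna5 held 4 GC boxes and 1 EGR core, which overlaps one of them, all on the opposite strand. Epha6 held 2 GC boxes and 1 CCAAT box, and the windows of Sema3a and Robo1 held none of the 7 motifs. Over the tested genes of the rule with a promoter in the table, a GC box lay in 9 of 13 that were higher in KA, 8 of 12 that were lower and 28 of 35 that passed the test in neither direction. A CCAAT box lay in 7 of 13, 3 of 12 and 9 of 35 of the same groups. Here a gene counted if any of its starts held the motif, with 79 starts over the 63 matched genes of the rule. The shares of all promoters count each start singly, so these counts are not to be read against them.

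In KA mice, 29 of the 70 tested genes of the rule differed from sham mice, 13 higher and 16 lower. The 70 are 69 genes of the guidance systems and Unc50, which was not among the 29. The share that differed was 41.4%, where 33.6% of all 14752 tested genes differed (edgeR quasi-likelihood test, Benjamini-Hochberg adjusted p under 0.05 over all tested genes), 19.0% higher and 14.6% lower. The secreted semaphorins Sema3a and Sema3d and ephrin-A5 were among the higher genes. Slit1, also a secreted repellent, Robo1 and several EphA receptors were among the lower ones. The 3 KA and 3 sham libraries did not overlap for 48 of the 70 genes (68.6%), where 56.3% of all genes did not overlap. The median log2 fold change was 0.017 over the 70 genes and 0.010 over all tested genes. Ligands passed in 9 of 36 cases (25%) and receptors in 20 of 33 (60.6%). By system 8 of 31 semaphorin genes (25.8%), 13 of 20 tested ephrin genes (65%), 4 of 7 Slit genes (57.1%) and 4 of 11 netrin genes (36.4%) passed, to be read against the 33.6% of all genes. The count higher in KA was 8 without KA replicate 3, where 23.4% of all genes differed in either direction. It was 22 without KA+NBP replicate 2, which enters the shared estimate of spread, where 45.1% of all genes differed. The count lower in KA was 9 without sham replicate 1 and 10 without sham replicate 3, where 18.2% and 18.5% of all genes differed. In bulk tissue, fewer cells of a type and less RNA per cell cannot be told apart.

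**Figure D1:**
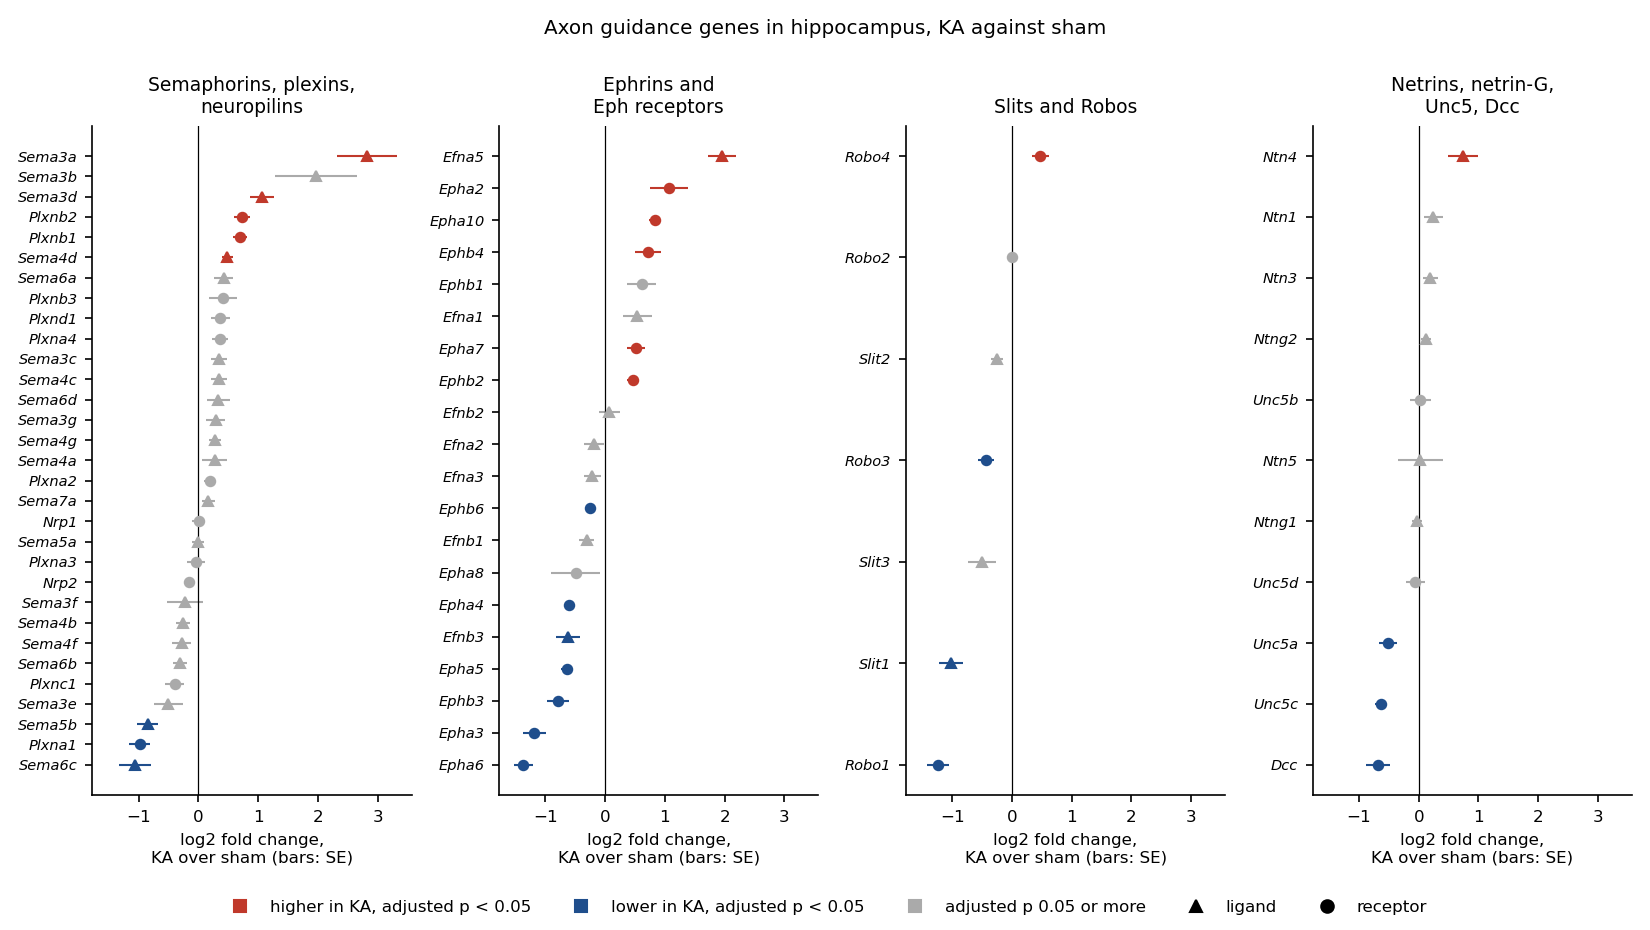
Log2 fold change of KA over sham (horizontal axis, bars: SE, 3 libraries per group) for the tested genes of the 4 guidance systems, ordered within each system, with triangles for ligands and circles for receptors. Genes past the threshold are red where higher in KA and blue where lower. The longest shift is that of Sema3a at 2.83, and the deepest fall that of Epha6 at -1.37.

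Sema3a, which repels axons through neuropilin-1 and A-type plexins and also sits in perineuronal nets, rose most in KA. It was measured at 3.37, 12.1 and 2.83 CPM in KA+NBP mice, 21.8, 20.6 and 33.1 CPM in KA mice and 3.74, 3.92 and 2.95 CPM in sham mice. Every KA library exceeded every library of the other groups, and KA+NBP replicate 2 stood between them. The log2 fold change was 2.83 (SE 0.50, adjusted p = 0.00429) in KA against sham and -2.04 (SE 0.47, adjusted p = 0.0178) in KA+NBP against KA, or -3.02 (SE 0.25) without KA+NBP replicate 2.

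A second secreted semaphorin, Sema3d, rose as well. Its levels were 7.63, 11.98 and 7.16 CPM in KA+NBP hippocampi, 16.8, 15.6 and 19.7 CPM in KA hippocampi and 7.30, 8.52 and 9.10 CPM in sham hippocampi. The KA values lay above all others, with log2 fold changes of 1.07 (SE 0.20, adjusted p = 0.00512) against sham and -0.96 (SE 0.20, adjusted p = 0.0122) for KA+NBP against KA. Sema3b, also secreted, stood at 1.52, 7.40 and 0.753 CPM with KA+NBP, 8.56, 8.96 and 4.32 CPM with KA and 1.68, 1.80 and 2.07 CPM with sham treatment. Its KA and sham libraries did not overlap, yet at 1.97 (SE 0.69, adjusted p = 0.0536) it missed the threshold, and it passed without KA+NBP replicate 2 (adjusted p = 0.000715). The other class 3 genes, Sema3c, Sema3e, Sema3f and Sema3g, had log2 fold changes of 0.35, -0.50, -0.23 and 0.29, none past the test.

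Sema4d, a membrane semaphorin that binds plexin-B1 and is made by oligodendrocytes and immune cells, had 81.2, 85.1 and 74.6 CPM in the KA+NBP libraries, 113, 116 and 104 CPM in the KA libraries and 76.96, 89.4 and 71.99 CPM in the sham libraries. The KA libraries were the highest, and the KA+NBP libraries lay inside the sham range. Log2 fold changes were 0.48 (SE 0.092, adjusted p = 0.00553) for KA against sham and -0.47 (SE 0.092, adjusted p = 0.0103) for KA+NBP against KA. Its receptor Plxnb1 moved the same way, at 161, 211 and 167 CPM in KA+NBP mice, 234, 271 and 259.9 CPM in KA mice and 164, 163 and 144 CPM in sham mice, with log2 fold changes of 0.70 (SE 0.11, adjusted p = 0.00305) and -0.50 (SE 0.11, adjusted p = 0.0152) in those comparisons. Plexin-B2, a related receptor found on neural progenitors and glia, had 91.7, 128 and 89.8 CPM in KA+NBP hippocampi, 173, 157 and 158 CPM in KA hippocampi and 94.5, 107 and 93.8 CPM in sham hippocampi. Its log2 fold changes were 0.72 (SE 0.13, adjusted p = 0.00466) in KA against sham and -0.66 (SE 0.13, adjusted p = 0.0108) in KA+NBP against KA. For both plexins the KA libraries cleared the other groups and KA+NBP replicate 2 lay above all sham libraries. Plxnb3, the third B-type plexin, had a log2 fold change of 0.41 (SE 0.23), which did not pass.

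Plxna1, an A-type plexin that carries the signal of class 3 semaphorins, went the other way. It stood at 313, 194 and 313 CPM with KA+NBP, 136, 164 and 129 CPM with KA and 281, 268 and 296 CPM with sham treatment. All KA values were below all sham values, and KA+NBP replicate 2 lay between the groups while the other KA+NBP libraries lay above the sham range. The log2 fold change was -0.98 (SE 0.17, adjusted p = 0.00447) in KA against sham and 0.94 (SE 0.17, adjusted p = 0.00848) in KA+NBP against KA. Plxna2, Plxna3 and Plxna4 had log2 fold changes of 0.19, -0.040 and 0.36 in KA against sham and did not pass. Sema5b and Sema6c, both membrane-spanning semaphorins, were lower in KA at -0.85 (SE 0.18, adjusted p = 0.00796) and -1.06 (SE 0.26, adjusted p = 0.015). Sema5b was measured at 23.01, 13.4 and 18.6 CPM in the KA+NBP libraries, 14.2, 13.01 and 11.7 CPM in the KA libraries and 23.4, 25.4 and 21.3 CPM in the sham libraries, so that KA+NBP replicate 2 lay among the KA libraries. Sema6c lost its call when sham replicate 1, sham replicate 3 or KA replicate 3 was left out, with adjusted p = 0.0512, 0.0522 and 0.0533.

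The neuropilins, co-receptors of class 3 semaphorins, did not pass in KA against sham. Nrp1 had a log2 fold change of 0.008 (SE 0.11) and Nrp2 one of -0.16 (SE 0.068). Nrp2 stood at 93.4, 96.3 and 92.7 CPM in KA+NBP mice, 75.7, 77.3 and 88.6 CPM in KA mice and 89.9, 89.96 and 90.2 CPM in sham mice. Its 3 KA+NBP libraries lay above all others, and the log2 fold change of 0.23 (SE 0.068, adjusted p = 0.0435) in KA+NBP against KA passed, small as it was. Plxnd1, the receptor of Sema3e, had 35.3, 38.4 and 28.6 CPM in KA+NBP hippocampi, 53.9, 47.1 and 47.4 CPM in KA hippocampi and 47.6, 34.4 and 33.02 CPM in sham hippocampi. It was lower in KA+NBP than in KA at -0.54 (SE 0.15, adjusted p = 0.0364), while its KA and sham libraries overlapped. Sema6a, a membrane semaphorin, was also lower in KA+NBP than in KA at -0.51 (SE 0.15, adjusted p = 0.0429). These last 3 calls were lost in 9 to 14 of the 19 alternatives.

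By transcript level per length, Sema7a, a membrane-anchored semaphorin, was the most abundant ligand of this system. It stood at 146, 176 and 137 TPM with KA+NBP, 154, 129.9 and 173 TPM with KA and 153, 138 and 152 TPM with sham treatment. The 3 groups overlapped, and the log2 fold change in KA against sham was 0.17 (SE 0.11) (approximate 95% interval -0.054 to 0.386, from the normal distribution and so too narrow). The most abundant receptor was Plxna4 at 67.9, 69.7 and 67.04 TPM in the KA+NBP libraries, 78.9, 58.4 and 91.00 TPM in the KA libraries and 61.5, 60.3 and 65.5 TPM in the sham libraries. Here too the KA libraries spread across the others, and 0.36 (SE 0.14, adjusted p = 0.0705) did not pass.

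Of the 13 Eph receptors tested, 11 (84.6%) differed between KA and sham, 5 higher and 6 lower, and of the 7 ephrins tested 2 (28.6%) differed, where 33.6% of all genes did. Efna5, the ephrin-A5 ligand that steers hippocampal and retinal projections during development, was the larger of the ephrin changes. Its values were 7.12, 13.8 and 8.66 CPM in KA+NBP mice, 31.6, 26.1 and 36.3 CPM in KA mice and 8.54, 8.77 and 6.90 CPM in sham mice. Each KA library held more than any other library, and KA+NBP replicate 2 was the highest of the rest. Log2 fold changes were 1.96 (SE 0.23, adjusted p = 0.00123) in KA against sham and -1.67 (SE 0.23, adjusted p = 0.00333) in KA+NBP against KA.

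Efnb3, a membrane-spanning ephrin-B and a synaptic ligand in hippocampus, was the most abundant ephrin by TPM and was lower in KA. It was found at 173, 130.5 and 165 TPM in KA+NBP hippocampi, 133, 113 and 70.4 TPM in KA hippocampi and 164, 189 and 161 TPM in sham hippocampi. The KA libraries were below all sham libraries but spread widely, and KA+NBP replicate 2 fell among them. The log2 fold change of -0.62 (SE 0.21, adjusted p = 0.044) was lost in 10 of the 19 alternatives, with adjusted p up to 0.111 without sham replicate 2. The remaining ephrins, Efna1, Efna2, Efna3, Efnb1 and Efnb2, ran from -0.31 (Efnb1) to 0.54 (Efna1) and did not pass.

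Epha4, which binds ephrins of both classes and shapes dendritic spines, had the highest mean level of all 73 genes. By TPM it stood at 207, 187 and 195 TPM with KA+NBP, 125, 121 and 130.4 TPM with KA and 199.7, 198 and 208 TPM with sham treatment. Every KA library was below every other library. On counts the log2 fold change was -0.61 (SE 0.073, adjusted p = 0.00124) in KA against sham and 0.56 (SE 0.073, adjusted p = 0.00272) in KA+NBP against KA.

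Epha3, Epha5 and Epha6, which bind ephrin-A ligands, were lower in KA together with Epha4. Epha6 had 67.95, 51.97 and 51.5 CPM in the KA+NBP libraries, 22.3, 28.4 and 31.2 CPM in the KA libraries and 61.7, 67.8 and 82.1 CPM in the sham libraries, a log2 fold change of -1.37 (SE 0.16, adjusted p = 0.00122) in KA against sham and of 1.06 (SE 0.16, adjusted p = 0.00462) in KA+NBP against KA. Epha3 had 15.1, 12.5 and 13.1 CPM in KA+NBP mice, 5.78, 7.79 and 4.44 CPM in KA mice and 12.8, 14.7 and 13.5 CPM in sham mice, with log2 fold changes of -1.19 (SE 0.19, adjusted p = 0.00289) and 1.17 (SE 0.19, adjusted p = 0.0052) in the same comparisons. Epha5 was at 137, 106 and 126 CPM in KA+NBP hippocampi, 88.5, 84.2 and 83.4 CPM in KA hippocampi and 137, 121 and 141 CPM in sham hippocampi, with -0.64 (SE 0.099, adjusted p = 0.00268) and 0.53 (SE 0.099, adjusted p = 0.00848). For these 3 receptors the KA libraries overlapped neither the KA+NBP nor the sham libraries, KA+NBP replicate 2 included.

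Epha7, Epha10 and Epha2 were higher in KA. Epha10, whose kinase domain lacks catalytic activity, had 63.4, 78.5 and 79.2 CPM with KA+NBP, 118, 115 and 129 CPM with KA and 72.4, 64.8 and 65.6 CPM with sham treatment. Its KA libraries were the highest, with log2 fold changes of 0.84 (SE 0.096, adjusted p = 0.00113) against sham and -0.71 (SE 0.096, adjusted p = 0.00323) for KA+NBP against KA. Epha7, a receptor found on dendrites and dividing progenitors, had 175, 188 and 184 CPM in the KA+NBP libraries, 224, 197 and 308 CPM in the KA libraries and 158, 159 and 193 CPM in the sham libraries. By CPM the KA libraries lay above both other groups, and KA replicate 3 was well above the rest. By TPM the groups overlapped, with KA replicate 2 at 109 TPM, KA+NBP replicate 2 at 113 TPM and sham replicate 3 at 118 TPM. The log2 fold change of 0.51 (SE 0.15, adjusted p = 0.0303) did not pass when sham replicate 1, sham replicate 2 or KA replicate 3 was left out, with adjusted p = 0.107, 0.113 and 0.0672. Epha2, better known from epithelia, was scarce at 1.21, 2.20 and 1.44 CPM in KA+NBP mice, 2.07, 3.25 and 3.64 CPM in KA mice and 1.12, 1.49 and 1.63 CPM in sham mice. It had a log2 fold change of 1.07 (SE 0.32, adjusted p = 0.0296), and the call was lost in 5 alternatives, each without 1 sham or KA library, with adjusted p up to 0.108. Epha8 had a log2 fold change of -0.49 (SE 0.41) and did not pass.

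EphB receptors, which bind ephrin-B ligands at synapses, also split. Ephb2, a partner of NMDA receptors, was measured at 36.3, 32.4 and 37.3 CPM in KA+NBP hippocampi, 54.1, 52.4 and 65.7 CPM in KA hippocampi and 39.9, 42.3 and 42.9 CPM in sham hippocampi. All KA libraries were above the sham libraries, and all KA+NBP libraries below them. Log2 fold changes were 0.46 (SE 0.097, adjusted p = 0.00794) in KA against sham and -0.70 (SE 0.098, adjusted p = 0.00345) in KA+NBP against KA. The first was lost when FPKM was tested with limma, with adjusted p of 0.0610 to 0.0701.

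Ephb3, which acts beside Ephb2 in crossing axons, had 26.2, 14.8 and 22.9 CPM with KA+NBP, 14.2, 13.6 and 15.5 CPM with KA and 27.7, 23.6 and 23.7 CPM with sham treatment, and KA+NBP replicate 2 lay within the KA range. Its log2 fold change of -0.79 (SE 0.18, adjusted p = 0.0121) in KA against sham was lost without sham replicate 1 (adjusted p = 0.0517). Ephb6, a second Eph receptor without kinase activity, stood at 107, 104 and 103 CPM in the KA+NBP libraries, 76.97, 86.8 and 92.4 CPM in the KA libraries and 105, 95.7 and 104 CPM in the sham libraries. It was slightly lower in KA than in sham at -0.25 (SE 0.076, adjusted p = 0.0326) and higher in KA+NBP than in KA at 0.30 (SE 0.076, adjusted p = 0.0247). Ephb4, known from veins, was higher in KA at 0.71 (SE 0.22, adjusted p = 0.0329) and lower in KA+NBP than in KA at -0.69 (SE 0.22, adjusted p = 0.0482). The calls of Ephb6 and Ephb4 in KA against sham were lost in 5 and 6 of 19 alternatives, with adjusted p up to 0.112 and 0.110. In KA+NBP against KA the call of Ephb6 was lost in 6 of 19 (adjusted p up to 0.140) and that of Ephb4 in 14 of 19 (adjusted p up to 0.152). Ephb1 had a log2 fold change of 0.61 (SE 0.24, adjusted p = 0.0791), which missed the threshold though its KA and sham libraries did not overlap.

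**Figure D2:**
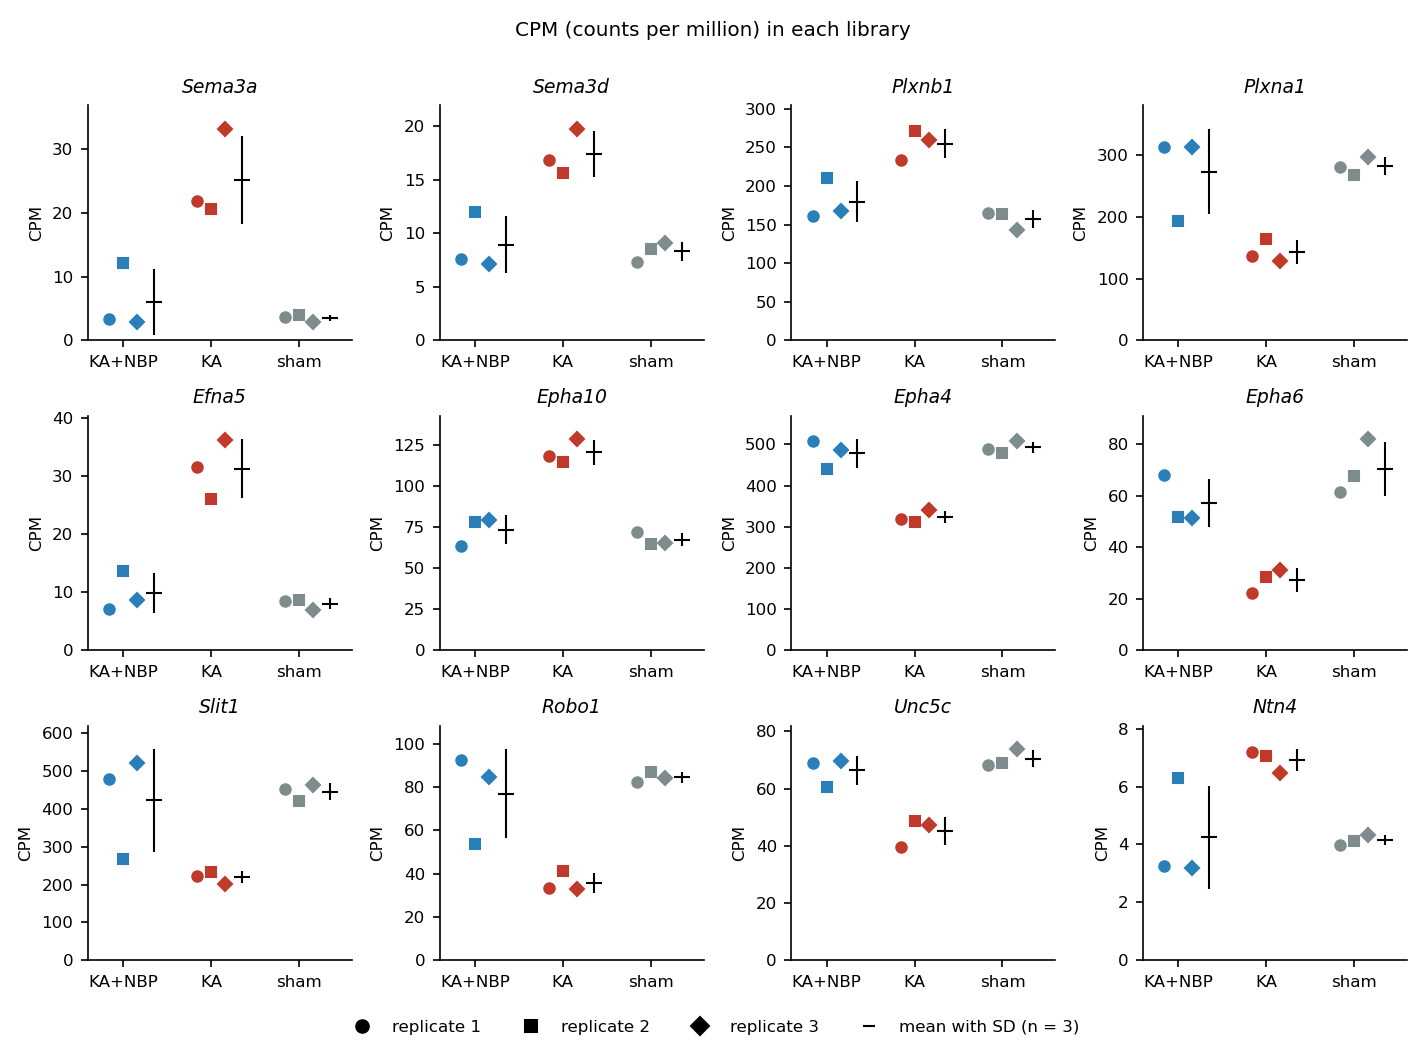
CPM (vertical axes, from 0) of 12 guidance genes in each library of the KA+NBP, KA and sham groups, with symbols for replicate numbers and a line for the mean and SD of 3 libraries. In each panel the KA points are clear of the sham points; for Slit1, KA+NBP replicate 2 is at 268 CPM and the other KA+NBP libraries are at 477 and 521 CPM.

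In the Slit system 4 of 7 genes (57.1%) differed between KA and sham, where 33.6% of all genes did. Slit1, the Slit most restricted to neurons, was its most abundant ligand. It stood at 184, 109 and 198 TPM in KA+NBP mice, 84.2, 88.5 and 72.9 TPM in KA mice and 178, 164 and 182 TPM in sham mice. The KA libraries were below all others, and KA+NBP replicate 2 was far below its group. On counts, log2 fold changes were -1.02 (SE 0.21, adjusted p = 0.00666) in KA against sham and 0.94 (SE 0.20, adjusted p = 0.0144) in KA+NBP against KA. Slit2 and Slit3 had log2 fold changes of -0.25 (SE 0.10) and -0.50 (SE 0.23) in KA against sham, in the same direction and not past the threshold, and both passed without KA+NBP replicate 2.

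Robo1, a receptor for all 3 Slits, was measured at 92.7, 53.6 and 84.6 CPM in KA+NBP hippocampi, 33.6, 41.1 and 32.9 CPM in KA hippocampi and 82.3, 86.97 and 84.1 CPM in sham hippocampi. The KA libraries were again the lowest, and KA+NBP replicate 2 lay between KA and sham. Log2 fold changes were -1.24 (SE 0.18, adjusted p = 0.00226) in KA against sham and 1.10 (SE 0.18, adjusted p = 0.00561) in KA+NBP against KA. Robo2, also a Slit receptor, was the most abundant Robo per length. It had 39.7, 37.2 and 38.1 TPM with KA+NBP, 36.97, 36.4 and 38.3 TPM with KA and 37.8, 37.3 and 42.97 TPM with sham treatment. Its libraries overlapped across the 3 groups. The log2 fold change of -0.002 (SE 0.076) in KA against sham had an approximate 95% interval of -0.151 to 0.147, from the normal distribution and so too narrow. Robo3, a divergent family member that governs midline crossing, was lower in KA at -0.44 (SE 0.13, adjusted p = 0.0324). Robo4, the Robo of endothelial cells, was higher at 0.48 (SE 0.15, adjusted p = 0.0344). The calls of Robo3 and Robo4 were lost in 8 and 7 alternatives, with adjusted p up to 0.112 and 0.135.

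In the netrin system the receptors held most of the changes. Unc5c, which turns netrin into a repellent, had 68.96, 60.7 and 69.8 CPM in the KA+NBP libraries, 39.6, 48.8 and 47.5 CPM in the KA libraries and 68.3, 69.1 and 73.9 CPM in the sham libraries. Each KA library was below each library of the other groups. Log2 fold changes were -0.64 (SE 0.093, adjusted p = 0.0022) in KA against sham and 0.55 (SE 0.093, adjusted p = 0.00608) in KA+NBP against KA.

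Unc5a, a netrin receptor of neurons, was the most abundant receptor of this system. It had 146, 104 and 160.1 TPM in KA+NBP mice, 92.02, 99.8 and 91.00 TPM in KA mice and 139, 138 and 148 TPM in sham mice. KA libraries were below all sham libraries, and KA+NBP replicate 2 was within 15 TPM of each of them. The log2 fold change was -0.52 (SE 0.15, adjusted p = 0.0273), lost without any single sham or KA library (adjusted p = 0.0526 to 0.0891). Dcc, the attractive netrin receptor, fell to 32.2 ± 5.07 CPM in KA, against 51.8 ± 2.01 CPM in sham (SD, n = 3 each). Its log2 fold change was -0.69 (SE 0.20, adjusted p = 0.0275), and adjusted p ran up to 0.0922 without KA replicate 3. Unc5b and Unc5d had log2 fold changes of 0.028 (SE 0.17) and -0.061 (SE 0.16) in KA against sham and did not pass.

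Ntn4, a netrin of vascular basement membranes, was the only netrin ligand past the test, and narrowly. It was found at 3.24, 6.30 and 3.20 CPM in KA+NBP hippocampi, 7.20, 7.05 and 6.47 CPM in KA hippocampi and 3.99, 4.10 and 4.33 CPM in sham hippocampi. KA libraries were the highest, KA+NBP replicate 2 was just below them, and the other KA+NBP libraries were below the sham range. The log2 fold change of 0.74 (SE 0.25, adjusted p = 0.0493) was lost in 11 of 19 alternatives, among them each one without a sham or KA library, with adjusted p up to 0.132 without sham replicate 1. Ntn1, the netrin that attracts through Dcc, had a log2 fold change of 0.24 (SE 0.16) and did not pass. Ntng2, a membrane-anchored netrin-G that does not bind Dcc, was the most abundant ligand here at 55.4, 51.6 and 54.7 TPM with KA+NBP, 58.7, 50.3 and 53.1 TPM with KA and 53.1, 51.7 and 52.9 TPM with sham treatment. Its groups overlapped, and the log2 fold change was 0.12 (SE 0.077). Unc50, the Golgi protein matched by letters, stood at 29.2, 31.4 and 29.2 CPM in the KA+NBP libraries, 35.95, 35.6 and 34.7 CPM in the KA libraries and 29.9, 31.5 and 33.1 CPM in the sham libraries. It did not pass in KA against sham at 0.17 (SE 0.067, adjusted p = 0.0809) and was lower in KA+NBP than in KA at -0.24 (SE 0.067, adjusted p = 0.0325), a call lost in 9 of 19 alternatives (adjusted p up to 0.189).

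Summed over a family, levels per length followed the abundant members. The 3 Slits summed to 221 ± 62.5 TPM in KA+NBP, 125.5 ± 12.3 TPM in KA and 237 ± 11.2 TPM in sham libraries (SD, n = 3 each). The 3 B-type plexins summed to 109 ± 22.8 TPM in KA+NBP, 153 ± 4.51 TPM in KA and 99.6 ± 8.41 TPM in sham libraries. The 4 Unc5 receptors summed to 182 ± 24.0 TPM in KA+NBP, 133 ± 7.13 TPM in KA and 189.8 ± 4.33 TPM in sham. The pair of netrin-G genes stayed between 76.0 and 81.5 TPM in all 9 libraries. Although Epha3 to Epha6 were lower and Epha2, Epha7 and Epha10 higher in KA, the 9 EphA receptors summed to 423 ± 10.2 TPM in KA+NBP, 365 ± 33.5 TPM in KA and 429 ± 23.9 TPM in sham libraries.

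**Figure D3:**
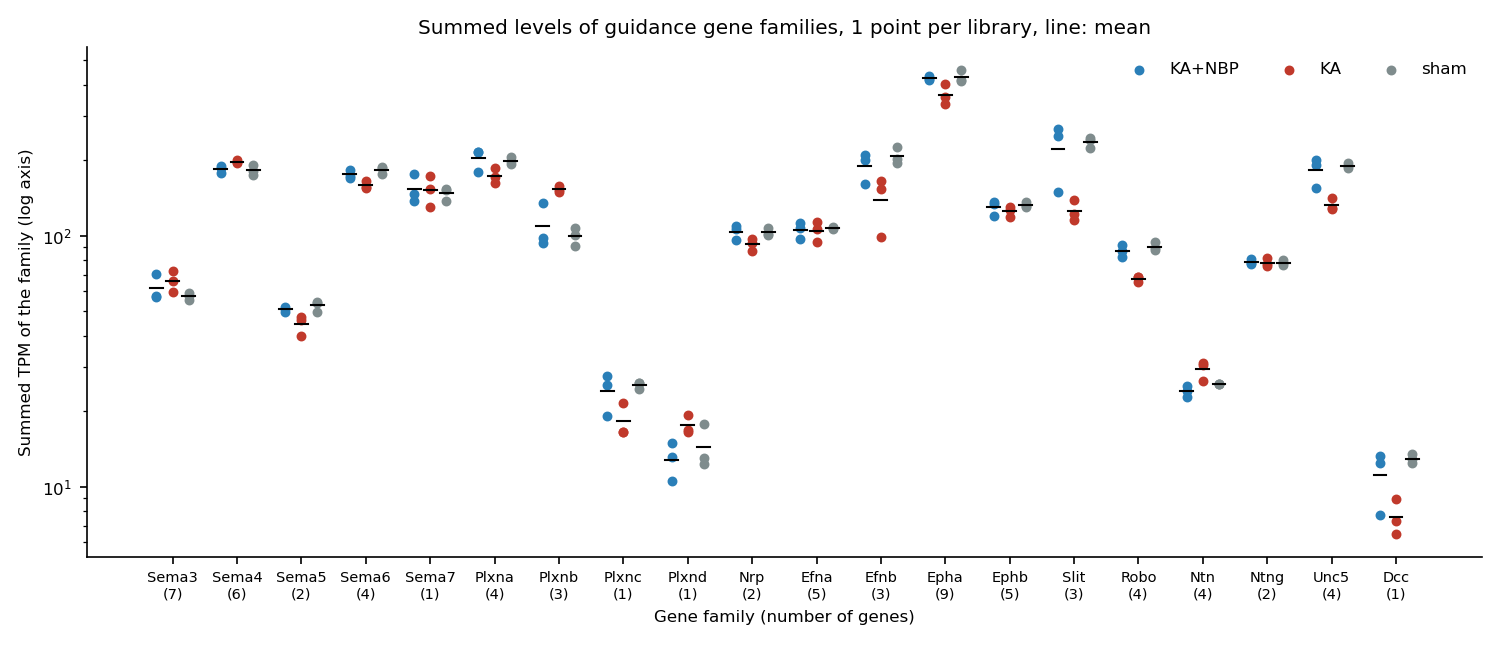
Summed TPM (vertical log axis) of each guidance family with its number of genes below, 1 point per library, in KA+NBP, KA and sham from left to right, with a line at each mean. The KA points overlap the sham points for Efna, Plxnd, Sema7 and the netrin-G genes, and lie apart from them for every other family. Among these are the Slits (115 to 139 TPM in KA, 224 to 245 TPM in sham), the B-type plexins, the Unc5 receptors and the Robos (65.2 to 68.6 TPM in KA, 87.5 to 94.3 TPM in sham).

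KA+NBP mice were compared with KA mice to ask how guidance genes differed where NBP was given. Of the 70 genes 22 differed, 10 higher and 12 lower in KA+NBP, or 31.4% (21 of 69, or 30.4%, without Unc50), where 22.7% of all tested genes differed, 10% higher and 12.7% lower. Epha3 to Epha6, Robo1, Slit1, Plxna1 and Unc5c were higher, and Sema3a, Sema3d, Sema4d, Efna5, Epha10, Ephb2, Plxnb1 and Plxnb2 lower. By system 9 of 31 semaphorin genes, 9 of 20 tested ephrin genes, 2 of 7 Slit genes and 1 of 11 netrin genes passed, besides Unc50. The libraries did not overlap for 29 of 70 genes (41.4%), where 36.6% of all genes did not. This comparison shares its KA libraries with that of KA against sham, so the values of both are set side by side above and no agreement between them is counted.

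Without KA+NBP replicate 2, 24 of the 70 genes were higher and 21 lower in KA+NBP than in KA, where 42.8% of all genes differed. Among the genes added were Unc5a (0.64, SE 0.068, adjusted p = 7.08e-05), Dcc (0.70, SE 0.11, adjusted p = 0.000831), Ephb3 (0.76, SE 0.11, adjusted p = 0.000408) and Sema6c (1.05, SE 0.17, adjusted p = 0.000705), all higher, and Ntn4 (-1.098, SE 0.15, adjusted p = 0.000345), lower. With that library kept, the counts were 7 higher and 5 lower without KA+NBP replicate 1, where 8.67% of all genes differed. They were 8 higher and 7 lower without KA+NBP replicate 3, where 10.1% of all genes differed. In a fit of these 2 groups alone 7 genes were higher and 4 lower, where 7.28% of all genes differed. With the replicate number as a block in that fit 0 passed, as did 0 of all genes.

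KA+NBP mice were also compared with sham mice. In edgeR's test 0 of the 70 genes and 0.0% of all genes passed at an adjusted p under 0.05, and DESeq2 called 0 guidance genes and 1 gene in all. At an unadjusted p under 0.05 the guidance genes held 1, Ephb2, at a log2 fold change of -0.24 (SE 0.098) (unadjusted p = 0.0372), and all genes 248 (1.68%). Log2 fold changes ran from -0.35 (Sema5b) to 0.80 (Sema3b) with a median SE of 0.157. Libraries did not overlap for 3 of the 70 genes, Ephb2, Nrp2 and Plxna4, where 6.37% of all genes did not overlap. Without KA+NBP replicate 2, 0 guidance genes passed as well.

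The KA+NBP libraries were also placed one by one on a log2 scale that runs from 0 at the mean of sham to 100 at the mean of KA, separately for each of the 29 guidance genes with a KA difference. These genes were selected for that difference, so the positions are a description without a test. KA+NBP replicate 1 had a median position of -9.1 (from -50.9 for Ephb4 to 35.5 for Robo4), and 0 of 29 genes lay above 50. KA+NBP replicate 3 had a median of 3.4 (from -48.3 for Ntn4 to 51.3 for Robo4), with 1 gene above 50. KA+NBP replicate 2 had a median of 52.9, with 16 genes above 50. In that library the genes were not evenly displaced. Dcc lay at 113.2, Unc5a at 96.8 and Ephb3 at 95.6, while Epha3 lay at 10.3, Epha4 at 26.5 and Ephb2 at -79.6.

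**Figure D4:**
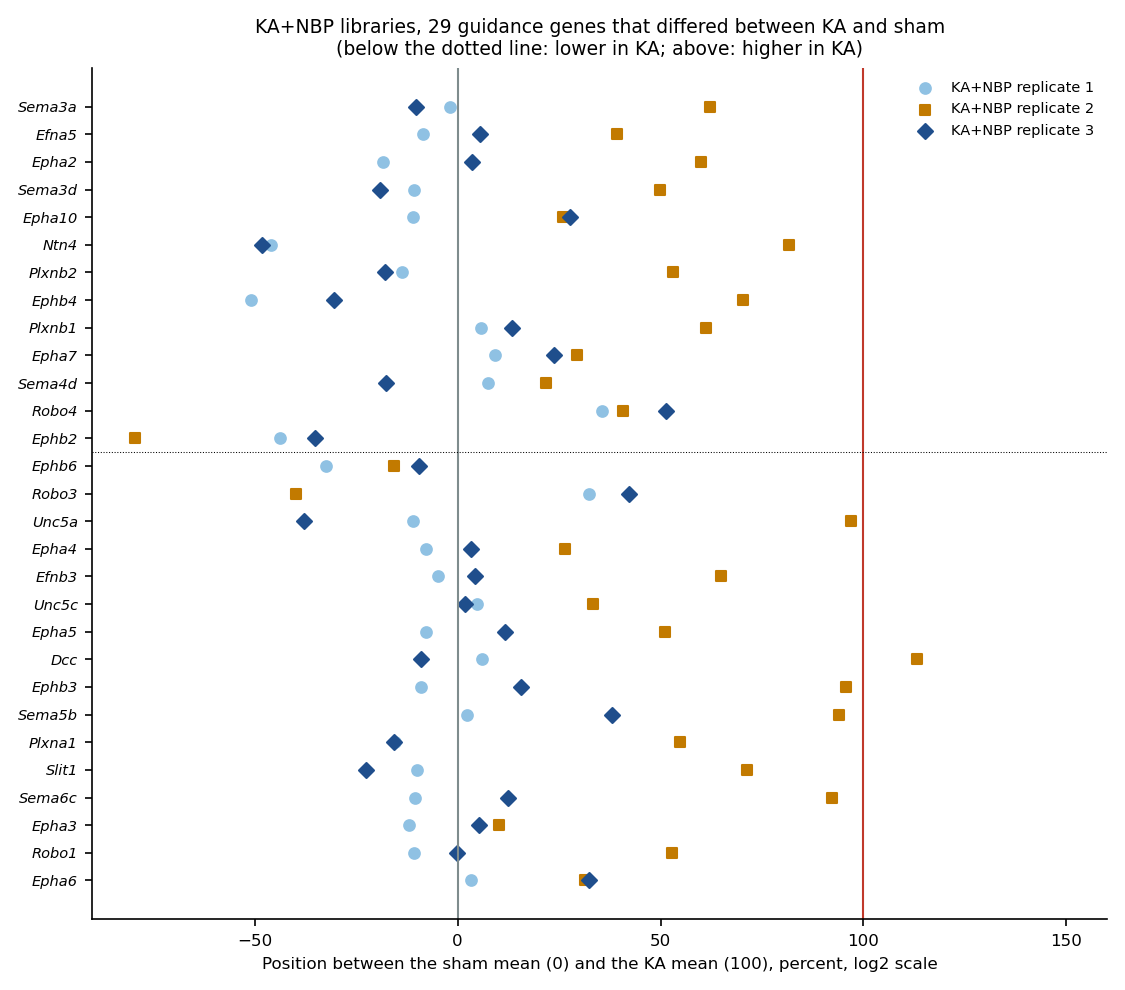
Position of each KA+NBP library (horizontal axis, percent of the distance from 0 at the mean of sham to 100 at the mean of KA, log2 scale) for the 29 guidance genes past the KA test, 1 symbol per replicate. Replicates 1 and 3 scatter about 0, and replicate 2 reaches from -79.6 (Ephb2) to 113.2 (Dcc).

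Cell type markers moved with these groups. In KA against sham, 14 of 15 microglial, 11 of 12 astrocytic, 7 of 12 endothelial, 8 of 9 mural and 5 of 8 oligodendrocyte precursor markers were higher and none of them lower, where 19.0% of all tested genes were higher and 14.6% lower. Of 12 pan-neuronal markers 1 was higher and 7 lower, of 8 dentate granule cell markers 1 and 6, of 6 CA1 pyramidal markers 0 and 4, and of 9 CA3 and CA2 markers 3 and 4. Of the other lists, 1 of 10 oligodendrocyte and 2 of 9 fibroblast and meningeal markers were higher, 1 of 9 choroid plexus and ependymal and 1 of 6 immature neuron markers lower, and of 10 interneuron markers 1 was higher and 3 lower.

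Summed TPM showed the same split for some lists and not for others. KA and sham sums overlapped for CA3 and CA2 markers (920.4 to 1126 and 885.4 to 977.5 TPM). They also overlapped for oligodendrocyte precursor markers (545.4 to 645.5 and 486.4 to 569.9 TPM). Fibroblast and meningeal sums lay apart, at 378.5 to 497.6 TPM in KA and 166.5 to 208.2 TPM in sham, although few of these markers passed. Microglial markers summed to 743 to 2056 TPM in KA+NBP, 4416 to 4695 TPM in KA and 726 to 937 TPM in sham libraries. Astrocytic markers summed to 2221 to 5565 TPM in KA+NBP, 7687 to 9075 TPM in KA and 2224 to 2546 TPM in sham libraries. Endothelial markers reached 226 to 346 TPM in KA+NBP, 346 to 355 TPM in KA and 217 to 273 TPM in sham. Pan-neuronal markers stood at 5982 to 7433 TPM in KA+NBP, 5090.4 to 5682 TPM in KA and 7049 to 7416 TPM in sham. CA1 markers summed to 281 to 528 TPM in KA+NBP, 266 to 330.5 TPM in KA and 464 to 523 TPM in sham libraries. The highest microglial and astrocytic sums and the lowest pan-neuronal and CA1 sums of the KA+NBP group all came from replicate 2. No marker was at 0 in all libraries. The part of these shifts in the guidance gene differences was not tested.

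A list of 44 genes, all tested, held genes that act behind the guidance receptors. It also held Plxdc1 and Plxdc2, membrane proteins named for a plexin domain and not such steps behind a receptor. In KA against sham 9 were higher and 11 lower, where 19.0% of all genes were higher and 14.6% lower, with a median log2 fold change of -0.049. Among the higher ones were Plxdc2, a plexin-domain membrane protein, at 1.24 (SE 0.19, adjusted p = 0.00254), and Mical1, which oxidises actin downstream of plexins, at 0.82 (SE 0.13, adjusted p = 0.00277). Among the lower ones were Srgap3, a GTPase-activating protein that binds Robo1, at -0.75 (SE 0.13, adjusted p = 0.00357), Chn1, a chimaerin that acts behind EphA4, at -0.70 (SE 0.12, adjusted p = 0.00406), the exchange factor Kalrn at -0.57 (SE 0.11, adjusted p = 0.00586) and the tyrosine kinase Abl2 at -0.40 (SE 0.081, adjusted p = 0.00648). In KA+NBP against KA 9 of the 44 were higher and 6 lower, where 10% of all genes were higher and 12.7% lower, and in KA+NBP against sham 0 passed.

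Other guidance and growth-inhibitory genes made a list of 31, of which 30 were tested. In KA against sham 5 were higher and 7 lower, or 40% in all where 33.6% of all genes differed, with a median log2 fold change of -0.125. Mdga1, a membrane-anchored protein that binds neuroligin, fell to 22.4 ± 4.43 CPM in KA, against 112 ± 10.1 CPM in sham (SD, n = 3 each), a log2 fold change of -2.31 (SE 0.34, adjusted p = 0.00216). Also lower were the adhesion protein Chl1 at -0.47 (SE 0.11, adjusted p = 0.0129), Lrig2 at -0.27 (SE 0.064, adjusted p = 0.0138) and Flrt3, a ligand of Unc5 receptors, at -0.47 (SE 0.12, adjusted p = 0.0148). Higher were Lingo1, a part of the Nogo receptor complex, at 0.69 (SE 0.18, adjusted p = 0.0183), the repulsive guidance molecule Rgma at 0.40 (SE 0.12, adjusted p = 0.0313) and the adhesion proteins Cntn4 and Ncam1 at 0.52 (SE 0.17, adjusted p = 0.0417) and 0.21 (SE 0.071, adjusted p = 0.0447). In KA+NBP against KA 6 were higher and 2 lower, or 26.7% in all where 22.7% of all genes differed, and in KA+NBP against sham 0 passed.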

How the data were processed

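RNA of 9 hippocampal libraries was analysed, 3 each from KA+NBP, KA and sham mice, grouped by the labels. The build GRCm39 and the tools RSEM 1.3.1, Bowtie2 and DESeq2 1.4.5 are named in the submitters' processing notes. Their settings and the strand of the libraries are not given in the sources used here, so reads of overlapping antisense genes cannot be told apart. The authors deposited 1 table with 3 values per gene and library: estimated counts (5.65 to 6.61% of them not whole), FPKM and TPM. Estimated counts were rounded and tested. FPKM as deposited served in alternative fits, as log2(FPKM + 1) or log2(FPKM + 0.1). TPM as deposited gave levels between genes. No sample was dropped or imputed in the values given as main results.

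In R 4.3.3, edgeR 4.0.16 was run with filterByExpr, TMM factors (0.975 to 1.04) and 1 quasi-likelihood fit of all 9 libraries with a mean per group (common dispersion 0.021). P-values were adjusted over all 14752 tested genes by Benjamini-Hochberg, with a threshold of 0.05. The SE is the absolute log2 fold change over the square root of F. CPM uses the normalized library sizes, and positions use log2(CPM + 0.5). The fit was tested on simulated data. Alternatives used DESeq2 1.42.0 (test and size factors), limma 3.58.1, other filters, 2 groups alone, the replicate number as a block and each library left out. Libraries of a group were not identical and differed by more than sampling noise. Separate mice are described in the series design, and no batch is recorded.

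Values in every library are given for up to 10 genes with the smallest p per direction and comparison, the largest change per system, and the most abundant ligand and receptor per system. The genes, lists and rule were chosen with earlier results of these data known. Same-numbered KA+NBP and sham libraries deviated together from their group means (correlations 0.301, 0.332 and 0.126). Differently numbered KA+NBP and sham libraries had correlations of -0.31 to 0.192. The value of 0.192, for KA+NBP replicate 3 with sham replicate 1, exceeded the 0.126 of that library with sham replicate 3. The values thus do not pair every library by its number, and no label states a shared source. Where a KA library was one of the pair, same-numbered correlations were -0.045 to 0.0447.

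Promoters come from RefSeq on GRCm38.p6. Member promoters on chromosome 18 were left out, and with them Dcc and Sema6a. After this step 63 of the 73 genes had a promoter matched by gene ID. Gene spans come from the deposited table on GRCm39.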

Additional observations from a re-analysis of the deposited data

How the results depend on the processing

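Of the 29 guidance genes that differed between KA and sham, 16 passed in all 19 alternatives and none changed direction in any. Of the 22 (Unc50 included) that differed between KA+NBP and KA, none passed in all 19, and each was lost in the fit of these 2 groups alone with the replicate number as a block. Counting that fit, the calls of Sema3a, Slit1 and Plxnb1 were each lost in 4 alternatives, that of Sema3d in 3 and that of Plxnb2 in 2. Those of Efna5, Epha3 to Epha6, Epha10, Ephb2, Sema4d, Plxna1, Robo1 and Unc5c were lost in that fit only. The cause of these shifts was not tested unless stated. In the 2 groups alone, 20 guidance genes were higher in KA than sham, where 43.7% of all genes differed. In such a fit 4 were lower in KA+NBP than KA, and 1065 of all genes (7.28%) differed between KA+NBP and KA. With the replicate block in such a fit, 23 were higher in KA than sham, where 42.6% of all genes differed. For KA+NBP against KA 0 were higher, 0 lower and 0 of all genes differed, a fit with fewer degrees of freedom. The replicate block changed no guidance call between KA+NBP and sham, 0 in both fits. DESeq2 called 1 gene of all between KA+NBP and sham. Leaving out 1 library at a time gave 8 to 22 guidance genes higher and 9 to 23 lower in KA than sham (2721 to 6700 of all genes), 7 to 24 higher and 5 to 21 lower in KA+NBP than KA (1295 to 6355 of all genes), and 0 to 1 of all genes between KA+NBP and sham. Robo2 in KA against sham, not past the test and near 0, changed sign to 0.000 with the replicate block, 0.001 with the block in 2 groups, 0.033 and 0.033 with log2(FPKM + 1) with and without the filter, and 0.035 with log2(FPKM + 0.1), and ranged from -0.067 to 0.068 with a library left out. Scaling moved the median of all genes by under 0.1. With 3 libraries a group, the median SE of 0.156 limits what could be seen.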

Other observations

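The balance between related receptors differed between groups, in pairs chosen after their values were seen and therefore given without a test. The TPM of Epha4 over that of Epha7, both receptors of ephrin-A ligands, was 1.94, 1.65 and 1.80 in the KA+NBP libraries, 0.986, 1.12 and 0.803 in the KA libraries and 2.07, 2.10 and 1.76 in the sham libraries. KA libraries thus held about as much Epha7 as Epha4 per transcript length, and the other libraries held more Epha4. The TPM of Plxna1 over that of Plxnb1 was 1.81, 0.860 and 1.73 in the KA+NBP libraries, 0.522, 0.561 and 0.453 in the KA libraries and 1.61, 1.56 and 1.94 in the sham libraries. Here KA+NBP replicate 2 lay between the KA and the sham libraries, whereas for Epha4 over Epha7 it lay just below the sham range.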
